A study of Mus musculus with 6 samples.

Results

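The RNA-seq data of 6 stromal populations of the mouse omentum were examined for 10 genes of glycolysis, *Gapdh*, *Pgk1*, *Tpi1*, *Aldoa*, *Ldha*, *Gpi1*, *Hk1*, *Hk2*, *Pfkl* and *Pfkp*, out of 23352 gene symbols in the data. *Gapdh* was the gene to which quantitative PCR of the sorted populations was normalized in the study. The list was chosen by name around *Gapdh* because the FPKM of *Gapdh* (a read level corrected for transcript length and library size) was already known to be higher in P4 and P5. The *Gapdh* ratios that led to the choice are therefore a description, and so are those of the other members, which come from the same libraries. The question put to the data was whether the other enzymes shared the higher level.

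All populations came from wild-type C57BL/6 mice and lacked the leukocyte marker CD45, and they were separated by flow cytometry with the fluorescent Aldefluor reaction for aldehyde dehydrogenase (ALDH) activity. P1, P2 and P3 were CD140a+ CD105+ cells with high, intermediate and low ALDH activity. P4 and P5 were CD140a+ CD105- cells with intermediate and low ALDH activity, and P6 was CD140a low and positive for ALDH. A single library stood for each population, the number of mice behind it is not given in the sources used here, and no statistical test could be made. The pairs P4 with P2 and P5 with P3 were gated at the same ALDH level and differed in CD105.

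Depth was estimated from the steps between low FPKM values at 36.8 M reads in P6 and 53.4 to 61.6 M reads in the others. The mRNAs of the surface markers CD105, CD140a and CD45 followed the gates. *Eng*, which encodes CD105, was at 42.6 to 52.4 FPKM in P1 to P3 and at 0.231 to 0.728 FPKM in P4 to P6. *Pdgfra*, which encodes CD140a, was at 117 to 154 FPKM in P1 to P5 and at 5.36 FPKM in P6, and *Ptprc*, which encodes CD45, did not exceed 0.755 FPKM in any population. *Aldh1a2*, which encodes a retinaldehyde dehydrogenase, did not follow the ALDH gates. It measured 469, 78.8 and 134 FPKM in P1 to P3, 285 and 145 in P4 and P5 and 209 in P6. P4 was thus at 3.61 times P2 and P5 at 1.09 times P3, although each pair shared an ALDH gate.

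Glycolysis splits glucose into pyruvate in the cytosol. Hexokinase traps glucose as glucose 6-phosphate, phosphofructokinase commits the sugar to breakdown, aldolase cuts it into 3-carbon sugars, and glyceraldehyde 3-phosphate dehydrogenase, encoded by *Gapdh*, oxidizes these with reduction of NAD+. Lactate dehydrogenase converts pyruvate to lactate and returns NAD+. Several steps have isozymes from different genes, whose balance varies between cell types. In GENCODE M21 (GRCm38) *Gapdh* lies at chr6:125161715-125166467 on the minus strand. *Tpi1* and *Hk2* are also on chromosome 6, *Gpi1*, *Ldha* and *Aldoa* on 7, *Hk1* and *Pfkl* on 10, *Pfkp* on 13 and *Pgk1* on X.

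**Figure D1:**
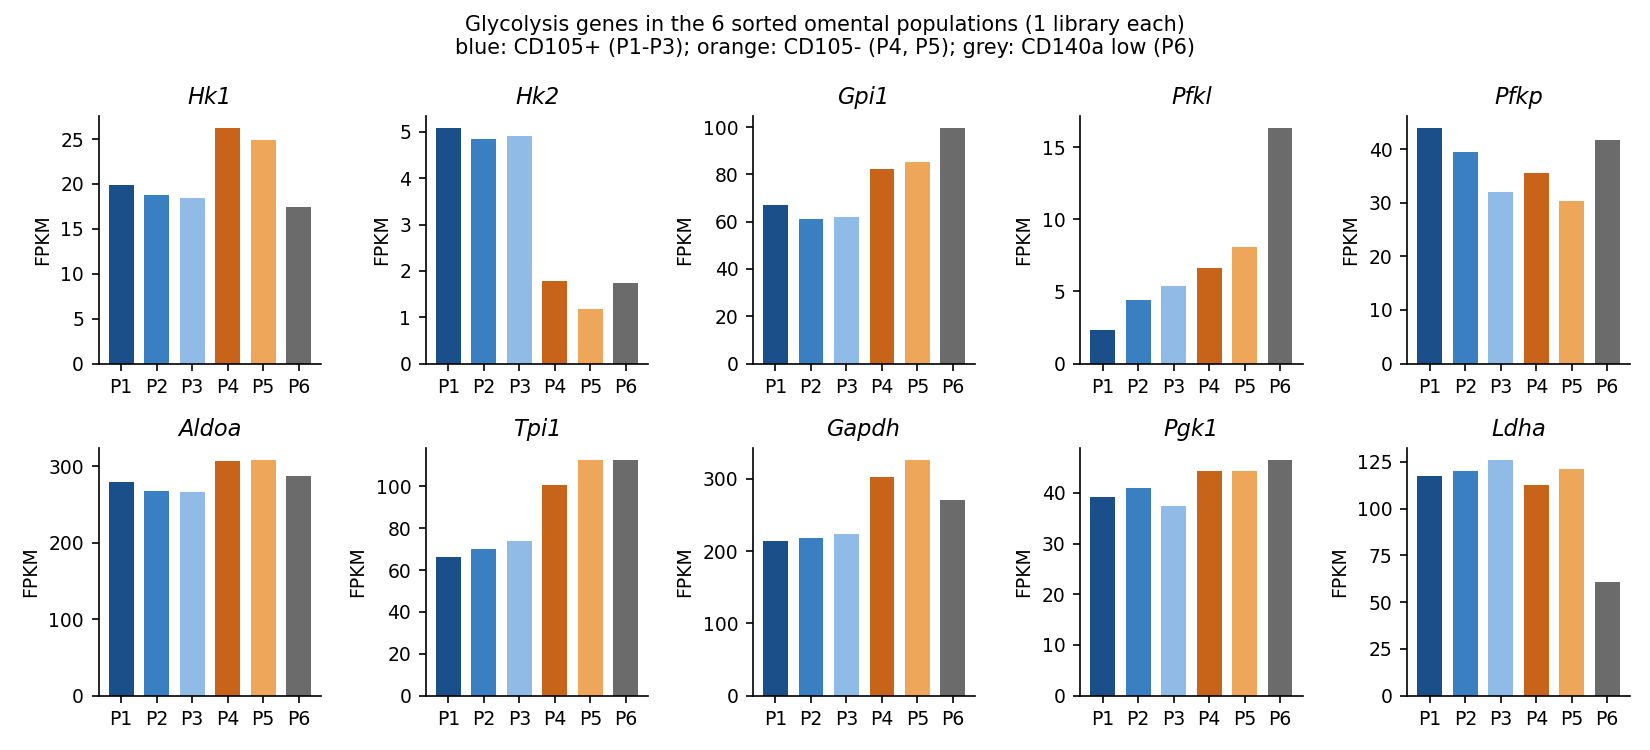
Bars give the FPKM of each of the 10 genes in the single library of P1 to P6, with genes in the order of the pathway and each axis starting at 0. *Gapdh*, *Tpi1*, *Gpi1*, *Hk1* and *Pfkl* were higher in P4 and P5 than in P1 to P3, as were *Pgk1* and *Aldoa* by a smaller margin. *Hk2* was lower, and *Ldha* and *Pfkp* were not separated.

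*Gapdh* measured 214, 218 and 224 FPKM in P1 to P3, 302 and 326 in P4 and P5 and 270 in P6. P4 and P5 lay above all CD105+ populations, and P6 lay between the groups. The ratio on FPKM + 0.1 was 1.39 for P4 over P2 (95% interval for counting error only, 1.36 to 1.42) and 1.46 for P5 over P3 (1.43 to 1.48). Within P1 to P3 the highest value was 1.05 times the lowest, a spread that 6.65% of the 12053 genes with a mean of at least 1 FPKM did not exceed, the median gene having 1.20. P5 was 1.08 times P4. As these are bulk libraries, fewer cells of a kind and less RNA per cell cannot be told apart.

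A member was called higher in the CD105- populations when both ratios, P4 over P2 and P5 over P3, were at least 25% above 1, and lower when both were at least 20% below 1. The call of *Gapdh* was fixed by the choice of the list. Of the other 9 members, 4 were higher, *Tpi1*, *Gpi1*, *Hk1* and *Pfkl*, and 1 was lower, *Hk2*. Among the 12053 genes 17.5% were higher and 11.6% lower by the same rule, and nothing is read from the comparison, since the ratios are those of the contrast that led to the list. P4 and P5 both exceeded P1, P2 and P3 for 6 of the 9, *Pgk1* and *Aldoa* in addition to the 4, beside 38.5% of all genes, and both lay below P1 to P3 for *Hk2* alone, beside 17.5% of all genes. The median log2 ratio over the 9 was 0.20 for P4 over P2 and 0.24 for P5 over P3, beside 0.08 and 0.09 over all genes, and with *Gapdh* included it was 0.31 and 0.34. Without *Gapdh*, the summed FPKM of the other 9 members was 1.14 times higher in P4 than in P2 and 1.17 times higher in P5 than in P3.

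**Figure D2:**
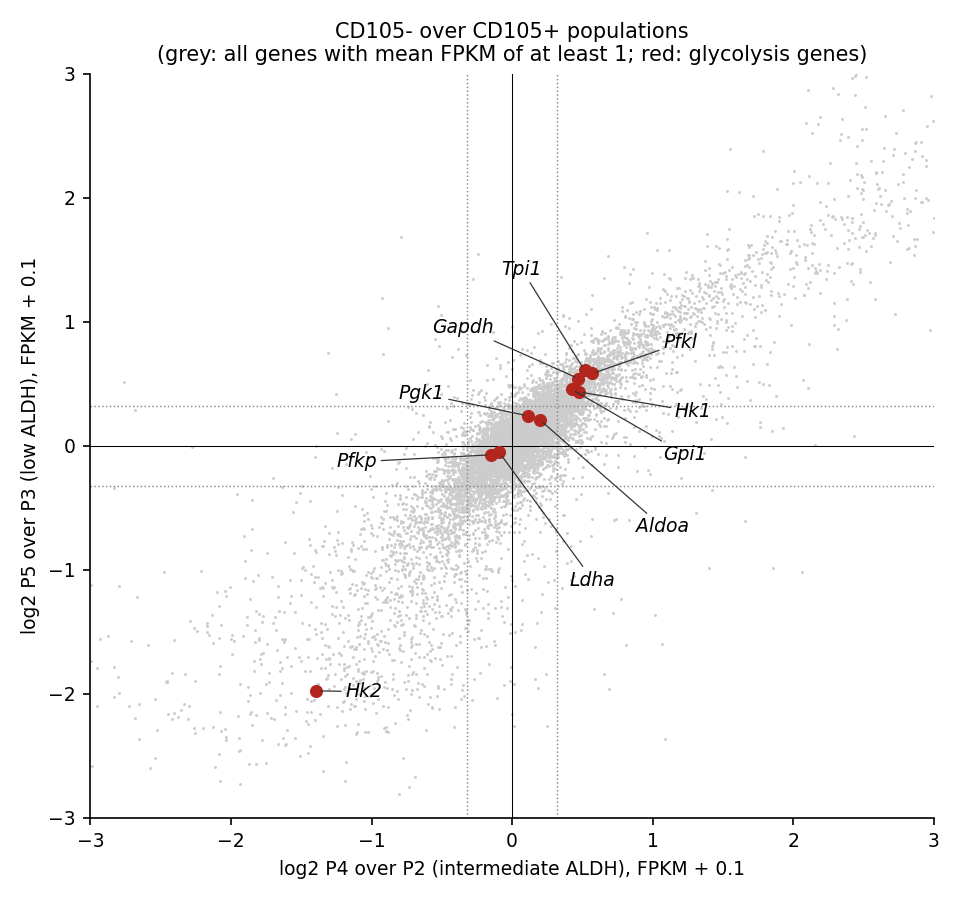
Each point is a gene, with log2 P4 over P2 on the horizontal and log2 P5 over P3 on the vertical axis, both on FPKM + 0.1. Grey points are genes with a mean of at least 1 FPKM, of which 312 lie outside the axes, red points are the 10 members, and dotted lines mark ratios 25% above and 20% below 1. A group of 5 members sits beyond the upper and right lines, and *Hk2* stands alone at -1.39 and -1.98.

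At the hexokinase step the isozymes differed in opposite directions. *Hk1*, the isozyme most tissues express, measured 19.9, 18.8 and 18.4 FPKM in P1 to P3, 26.2 and 24.9 in P4 and P5 and 17.4 in P6, so that P4 and P5 exceeded all the others. Its ratios were 1.39 for P4 over P2 (1.34 to 1.44) and 1.35 for P5 over P3 (1.30 to 1.40). *Hk2*, an isozyme that is inducible by insulin and hypoxia in several tissues, measured 5.08, 4.84 and 4.91 FPKM in P1 to P3 and 1.78, 1.17 and 1.73 FPKM in P4, P5 and P6. The 3 CD105+ libraries differed by no more than 1.05 times, while P4 was at 0.381 of P2 (0.346 to 0.419) and P5 at 0.254 of P3 (0.227 to 0.284). *Hk2* therefore took 20.4% to 20.9% of the summed hexokinase FPKM (*Hk1*, *Hk2* and *Hk3*) in P1 to P3, 6.36% and 4.48% in P4 and P5 and 9.04% in P6. The sum itself was 1.18 times higher in P4 than in P2 and 1.12 times higher in P5 than in P3.

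*Gpi1*, which converts glucose 6-phosphate to fructose 6-phosphate, measured 66.9, 61.2 and 62.2 FPKM in P1 to P3, 82.2 and 85.2 in P4 and P5 and 99.6 in P6. All 3 CD105- or CD140a low libraries were above the CD105+ libraries, by 1.34 times for P4 over P2 (1.31 to 1.38) and 1.37 times for P5 over P3 (1.34 to 1.41).

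The phosphofructokinase genes did not move together. *Pfkl*, the liver-type subunit, had 2.35, 4.41 and 5.38 FPKM in P1 to P3, 6.60 and 8.10 in P4 and P5 and 16.3 in P6. It was 1.49 times higher in P4 than in P2 (1.37 to 1.61) and 1.5 times higher in P5 than in P3 (1.39 to 1.61), but it also varied 2.24 times among the CD105+ populations, which is more than either ratio. *Pfkp*, the platelet-type subunit and the most abundant of the 3 genes, had 43.9, 39.5 and 31.9 FPKM in P1 to P3, 35.5 and 30.3 in P4 and P5 and 41.7 in P6. The CD105+ and CD105- libraries overlapped, with ratios of 0.900 (0.874 to 0.926) and 0.950 (0.920 to 0.981). The share of *Pfkl* in the phosphofructokinase sum was 4.17%, 7.87%, 11.3%, 12.1%, 15.9% and 21.5% from P1 to P6, and that of *Pfkp* ran from 77.9% in P1 down to 54.8% in P6. The sum was within 1.07 times between the paired populations.

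*Aldoa*, the main aldolase of most tissues outside liver, was high in every population. It measured 280, 267 and 267 FPKM in P1 to P3, 307 and 308 in P4 and P5 and 287 in P6. P4 and P5 were above P1 to P3, although the ratios of 1.15 (1.13 to 1.17) and 1.15 (1.13 to 1.18) stayed under the limit of 25%.

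*Tpi1*, which interconverts the 3-carbon sugars made by aldolase, stayed nearest to *Gapdh* in ratio to it over P1 to P5. It measured 66.0, 70.3 and 73.8 FPKM in P1 to P3, 100.5 and 112.5 in P4 and P5 and 112.3 in P6. The ratio was 1.43 for P4 over P2 (1.38 to 1.48) and 1.52 for P5 over P3 (1.48 to 1.57). Per *Gapdh*, *Tpi1* was 30.8% in P1 and 34.5% in P5, a range of 1.12 times, against 1.20 times for *Gpi1*, 1.22 times for *Hk1* and 6.60 times for *Hk2*.

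*Pgk1*, which makes ATP in the step after *Gapdh*, was above P1 to P3 in P4 and P5 by a smaller margin. Its FPKM was 39.1, 41.0 and 37.4 in P1 to P3, 44.4 and 44.2 in P4 and P5 and 46.4 in P6. P4 over P2 was 1.08 (1.04 to 1.13) and P5 over P3 was 1.18 (1.13 to 1.23), and with quantile normalization the log2 ratio of P4 over P2 turned to -0.0029. *Pgk1* is itself used as a reference gene, and its level relative to *Gapdh* was 0.36 lower on the log2 scale in P4 against P2 and 0.30 lower in P5 against P3.

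*Ldha*, the subunit of lactate dehydrogenase that prevails in glycolytic tissues, differed little across P1 to P5. It had 117, 120 and 126 FPKM in P1 to P3, 113 and 121 in P4 and P5 and 60.5 in P6, with ratios of 0.938 (0.914 to 0.963) and 0.964 (0.940 to 0.989). The CD105+ and CD105- values overlapped, and only P6 stood apart, at 0.537 of P4 and 0.499 of P5. *Ldhb*, the subunit of oxidative tissues such as heart, is no member of the list but shares the step. It had 40.3, 70.4 and 96.4 FPKM in P1 to P3, 102 and 155 in P4 and P5 and 91.3 in P6. Its share of the lactate dehydrogenase sum was 25.6%, 36.9%, 43.4%, 47.5%, 56.1% and 60.1% from P1 to P6, so that *Ldha* was the larger part in P1 to P4 and *Ldhb* in P5 and P6.

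**Figure D3:**
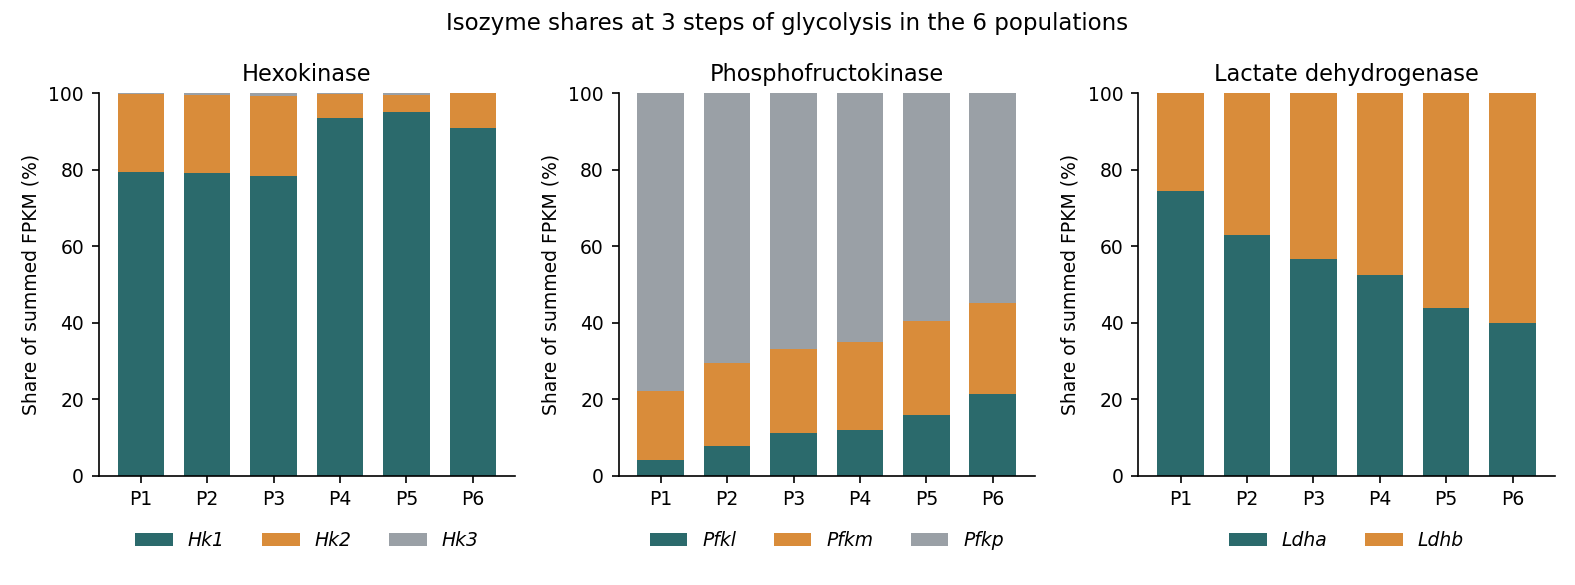
Stacked bars give the percent of the summed FPKM of each isozyme gene at the hexokinase, phosphofructokinase and lactate dehydrogenase steps in P1 to P6. The *Hk2* share was 20.4% or more in the CD105+ and 6.36% or less in the CD105- populations, whereas the *Pfkl* and *Ldhb* shares already differed among P1, P2 and P3.

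Set against P4 and P5, P6 had 1 member at least 25% higher than both, *Pfkl* (2.45 times P4 and 2.0 times P5), against 18.8% of all genes. *Ldha* and *Hk1* were at least 20% lower than in both, *Hk1* at 0.665 of P4 and 0.701 of P5, against 16.5% of all genes. *Gapdh* in P6 was 0.894 of P4 and 0.829 of P5.

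The remaining enzymes of the pathway were read from a list of 20, of which 19 were found and 9 had a mean of at least 1 FPKM. By the rule for both pairs, which 17.5% of all genes met as higher and 11.6% as lower, 4 of these 9 were higher and 0 lower. They were *Pkm*, the pyruvate kinase that ends the pathway, the enolases *Eno1* and *Eno2*, and *Ldhb*. *Pkm* measured 82.6, 91.2 and 90.5 FPKM in P1 to P3, 137 and 146 in P4 and P5 and 202 in P6, a ratio of 1.5 for P4 over P2 and 1.61 for P5 over P3. *Eno1* measured 54.8, 50.1 and 54.0 FPKM in P1 to P3, 74.7 and 71.7 in P4 and P5 and 71.6 in P6. *Eno2* had log2 ratios of 0.59 and 0.74. *Pgam1*, the mutase between *Pgk1* and enolase, ran from 65.3 FPKM in P6 to 75.6 FPKM in P4, with ratios of 1.1 and 1.05. Over members, *Gapdh* included, and other enzymes together, 9 of 19 were higher and 1 was lower, with medians of 0.20 and 0.25 on the log2 scale.

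Transporters at either end of the pathway differed from each other. *Slc2a1*, the glucose transporter GLUT1, was lower in the CD105- population of both pairs, with 8.67 FPKM in P2 against 5.34 in P4 and 10.1 in P3 against 6.66 in P5, but P1 had only 5.74. *Slc16a1* and *Slc16a3*, the lactate carriers MCT1 and MCT4, were higher. *Slc16a1* had 3.0, 3.91 and 5.08 FPKM in P1 to P3, 15.0 and 11.4 in P4 and P5 and 68.4 in P6, and *Slc16a3* had 0.488 to 0.853 FPKM in P1 to P3 and 3.39 to 4.03 FPKM in P4 to P6. *Bsg*, their chaperone, had 198 to 283 FPKM and ratios of 0.940 and 0.994. Of 5 transport genes with a mean of at least 1 FPKM, 2 were higher and 1 was lower, beside 17.5% and 11.6% of all genes.

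Among 15 regulators of glycolysis with a mean of at least 1 FPKM, 2 were higher and 4 lower, beside 17.5% and 11.6% of all genes. *Egln3*, a prolyl hydroxylase that marks hypoxia-inducible factors for degradation, had 2.60, 3.69 and 16.3 FPKM in P1 to P3, 60.9 and 79.0 in P4 and P5 and 47.9 in P6. *Myc*, a transcription factor with many glycolysis genes among its targets, had 223, 206 and 200 FPKM in P1 to P3, 106 and 69.9 in P4 and P5 and 22.8 in P6. *Epas1*, which encodes HIF-2 alpha, had 48.6, 67.2 and 74.2 FPKM in P1 to P3, 31.2 and 33.0 in P4 and P5 and 2.90 in P6, while *Hif1a* varied from 15.6 to 24 FPKM. By the rule for both pairs *Egln3* was higher and *Myc* and *Epas1* were lower. The other regulators called were pyruvate dehydrogenase kinases. *Pdk1* was higher, with log2 ratios of 0.50 and 0.35, and *Pdk2* (-0.89 and -0.82) and *Pdk4* (-0.50 and -0.62) were lower. A link of any regulator to the *Gapdh* level was not tested.

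Neighbouring pathways were also counted, beside the 17.5% of all genes that were higher and the 11.6% that were lower. Of 14 hypoxia-responsive genes outside glycolysis 0 were higher in both pairs and 4 were lower, among them *P4ha2*, a collagen prolyl hydroxylase, at -0.72 and -1.25 on the log2 scale. Of 8 pentose phosphate genes 1 was higher, *Taldo1* (1.31 times in both pairs), and 2 were lower. Of 21 genes of pyruvate dehydrogenase and the citric acid cycle 1 was higher, the mitochondrial malate dehydrogenase *Mdh2*, with 60.6 to 65.2 FPKM in P1 to P3, 103 and 109 in P4 and P5 and 173 in P6. Of 3 gluconeogenesis genes 0 were higher and 1 was lower, *Pcx*, pyruvate carboxylase, at -0.58 and -0.88 on the log2 scale. The medians for P4 over P2 and P5 over P3 were -0.01 and -0.08 for the hypoxia list, -0.21 and -0.14 for the pentose phosphate list, and 0.07 and 0.15 for the citric acid cycle list.

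The promoters of *Gapdh*, *Tpi1* and *Hk2* are shown because the first pair was higher in P4 and P5 and the last was lower, all on chromosome 6. RefSeq sequences of GRCm38.p6, the same assembly as mm10, cover 250 bases before to 50 bases after a start and are written on the gene's strand, all minus. They lie at chr6:125165724-125166023, chr6:124814109-124814408 and chr6:82774405-82774704. Capitals mark the letters ACGTG and GCGTG on either strand, the core of the element bound by hypoxia-inducible factors. ACGTG is also part of CACGTG, the site of Myc, which is counted on both strands.
Gapdh: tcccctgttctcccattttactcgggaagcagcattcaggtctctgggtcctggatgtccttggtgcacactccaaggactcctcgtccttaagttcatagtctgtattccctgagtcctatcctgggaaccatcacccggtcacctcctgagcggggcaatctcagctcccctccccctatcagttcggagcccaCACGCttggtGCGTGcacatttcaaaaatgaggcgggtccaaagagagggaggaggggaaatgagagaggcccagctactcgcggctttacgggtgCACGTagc
Tpi1: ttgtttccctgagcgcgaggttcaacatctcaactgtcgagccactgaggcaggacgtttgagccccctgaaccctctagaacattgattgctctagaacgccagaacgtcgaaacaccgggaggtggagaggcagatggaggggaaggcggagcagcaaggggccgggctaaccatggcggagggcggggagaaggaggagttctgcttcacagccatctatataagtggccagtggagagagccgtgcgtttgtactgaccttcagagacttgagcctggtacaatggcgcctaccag
Hk2: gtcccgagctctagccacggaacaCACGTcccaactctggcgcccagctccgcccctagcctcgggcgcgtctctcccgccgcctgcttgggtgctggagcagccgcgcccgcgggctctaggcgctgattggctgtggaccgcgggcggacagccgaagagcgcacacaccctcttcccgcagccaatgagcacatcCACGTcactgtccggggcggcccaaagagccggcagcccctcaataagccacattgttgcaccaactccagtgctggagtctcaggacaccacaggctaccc
*Gapdh* held 1 ACGTG and 2 GCGTG, *Hk2* 2 ACGTG and *Tpi1* neither. Over 32851 promoters of the same length 19.6% held ACGTG, 32.4% held GCGTG and 43.8% held either. Of the 14 promoter entries of the 10 members, some of which belong to 1 gene and overlap, 7 held ACGTG, 6 held GCGTG and 10 held either. A match is a description of the letters in this window only.

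A second row of the data carried the *Gapdh* pattern. *Gm12070*, a processed pseudogene of *Gapdh* at chr11:26786633-26787634 (plus strand), measured 62.1, 62.9, 64.2, 87.2, 93.5 and 79.3 FPKM from P1 to P6, which was 28.6% to 29.3% of *Gapdh* in every library. Its 1002 bases matched the longest *Gapdh* mRNA of GENCODE M21 at all but 1 base, G601A, counted from 1 at the 5′ end of that mRNA. The stretch around the difference is printed with the differing base in capitals.
Gapdh: gggtcatcatctccGccccttctgccgat
Gm12070: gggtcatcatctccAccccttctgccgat
Only 8.20% of the 76-base windows in the shared stretch contain that base, so that most reads that fall in it cannot be assigned to either from sequence. Summed with *Gm12070*, *Gapdh* was 1.39 times higher in P4 than in P2 and 1.46 times higher in P5 than in P3. As *Gm12070* was a nearly constant share of *Gapdh*, the sum could hardly change these ratios, and it is no check on the assignment of reads. Transcripts of 180 other annotated genes matched *Gapdh* at 90% identity or more over at least 200 bases, of which 9 were listed with an FPKM, and the next of the pseudogenes, *Gm5523*, reached 6.73 FPKM at most. *Pfkp* shared 748 identical bases with its neighbour *Pitrm1* (11 to 15.2 FPKM), and *Hk1*, *Hk2* and *Pfkl* had no such copy.

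The question of *Gapdh* as a reference was read against 20 genes in common use for that purpose, *Gapdh* and *Pgk1* among them. Of the 19 with a mean of at least 1 FPKM, 4 were higher in both CD105- populations (*Gapdh*, *B2m*, *Ywhaz* and *Hprt*) and 2 were lower (*Rpl13a* and *Rps18*). These counts are near the shares over all genes, 17.5% higher and 11.6% lower. The log2 ratio of *Gapdh* exceeded the median of the 17 genes outside glycolysis by 0.40 for P4 over P2 and 0.41 for P5 over P3. *B2m*, the light chain of MHC class I, had 1326, 1447 and 1856 FPKM in P1 to P3, 2234 and 2607 in P4 and P5 and 1471 in P6, so its ratio for P4 over P2, 1.54, was above that of *Gapdh*, and that for P5 over P3, 1.40, below it.

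*Actb*, cytoplasmic actin, had the least variation of the 20, with 885 to 947 FPKM across the 6 populations and a highest value 1.07 times the lowest. The mitochondrial *Sdha* followed with 1.13 times. *Gapdh* was 13th with 1.52 times, and *Gusb*, a lysosomal enzyme, was last with 2.44 times.

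*Rpl13a*, a ribosomal protein gene that the study used as the reference in a comparison between tissues, differed in the opposite direction to *Gapdh*. It measured 603, 639 and 561 FPKM in P1 to P3, 428 and 415 in P4 and P5 and 376 in P6, with ratios of 0.670 and 0.740. The ribosomal *Rps18* (0.734 and 0.798) and *Rplp0* (0.819 and 0.903) had ratios below 1 as well, except that *Rplp0* in P5 over P3 turned to a log2 ratio of 0.02 with quantile normalization and both were above 0 once divided by *Rpl13a*. Divided by *Rpl13a*, 9 of the 10 members were higher in both pairs, and *Ldha* and *Pfkp* changed direction to log2 ratios of 0.48 and 0.42 for P4 over P2. With this divisor 70.0% of all genes passed the rule.

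**Figure D4:**
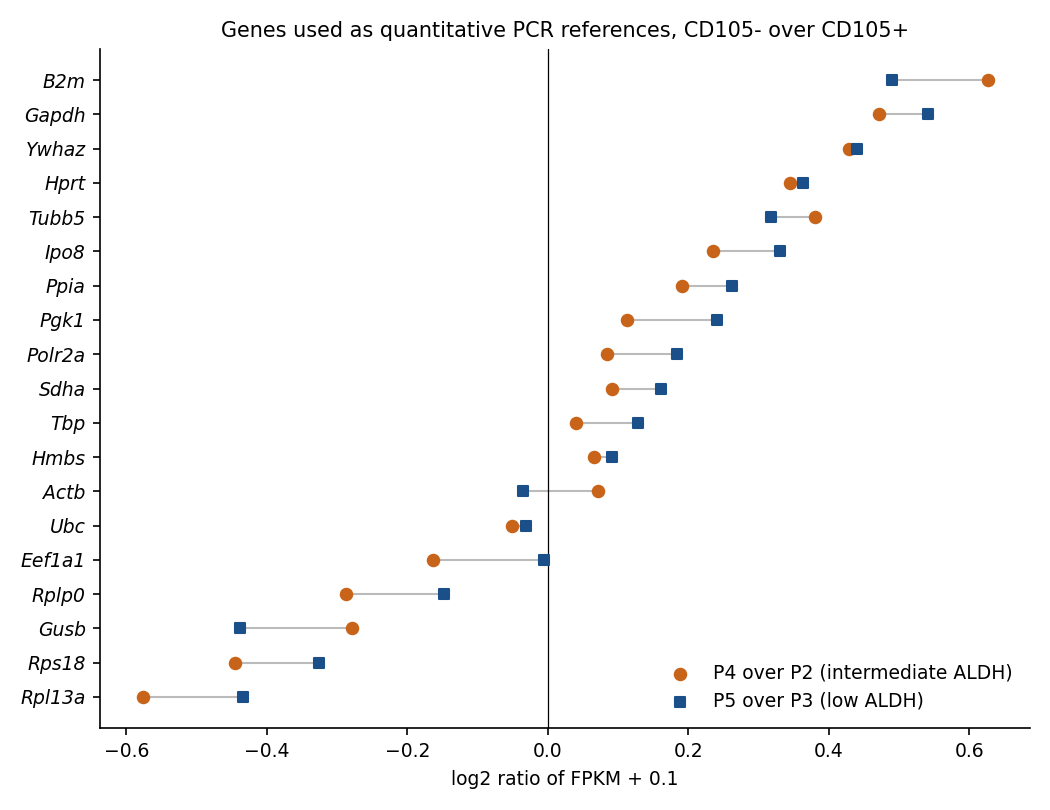
Points give log2 P4 over P2 (circles) and log2 P5 over P3 (squares), on FPKM + 0.1, for the 19 reference genes with a mean of at least 1 FPKM, in order of their mean. *B2m* and *Gapdh* lie at the upper end, between 0.47 and 0.63, *Actb* at 0.07 and -0.04, and *Rpl13a* at -0.58 and -0.43.

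Quantitative PCR targets of the study show what the divisor does to other genes. The effect was computed for 7 of them, *Aldh1a2*, *Phex*, *Postn*, *Ptx3*, *Ace*, *Adm* and *Tek*, from FPKM only. Genes high in P1 had been picked by the study on these same libraries, so their P1 values are no independent evidence. Division by *Gapdh* lowers every ratio of P4 over P2 and of P5 over P3 by the *Gapdh* ratio of that pair. P4 exceeded P2 for 5 of the 7 genes as deposited, for 3 after division by *Gapdh*, for 5 after division by *Actb* and for 7 after division by *Rpl13a*. With the reference genes *Hprt* and *Tbp* as divisors the counts were 4 and 5. *Ptx3*, a soluble pattern recognition molecule, went from 1.19 to 0.858 and *Tek*, the angiopoietin receptor, from 1.28 to 0.925 with *Gapdh*. For P5 over P3, *Aldh1a2*, a retinaldehyde dehydrogenase, went from 1.09 to 0.746, and the other 6 genes were below 1 with each of these divisors.

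P1 was at least 2 times above the highest other population for 5 of the 7 genes as deposited, for 7 after division by *Gapdh*, for 4 with *Actb* and for 2 with *Rpl13a*. The count was also 7 with *Hprt*, and it was 6 with *Tbp*, so that 7 was not particular to *Gapdh*. *Hprt*, however, was like *Gapdh* higher in both CD105- populations, with ratios of 1.27 and 1.29. For *Aldh1a2* the highest other population was P4 with each of these divisors, and P1 was above it 1.65 times as deposited, 2.33 times with *Gapdh* and 1.17 times with *Rpl13a*. These are ratios of sequencing values and not of PCR measurements, which were not analysed here.

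**Figure D5:**
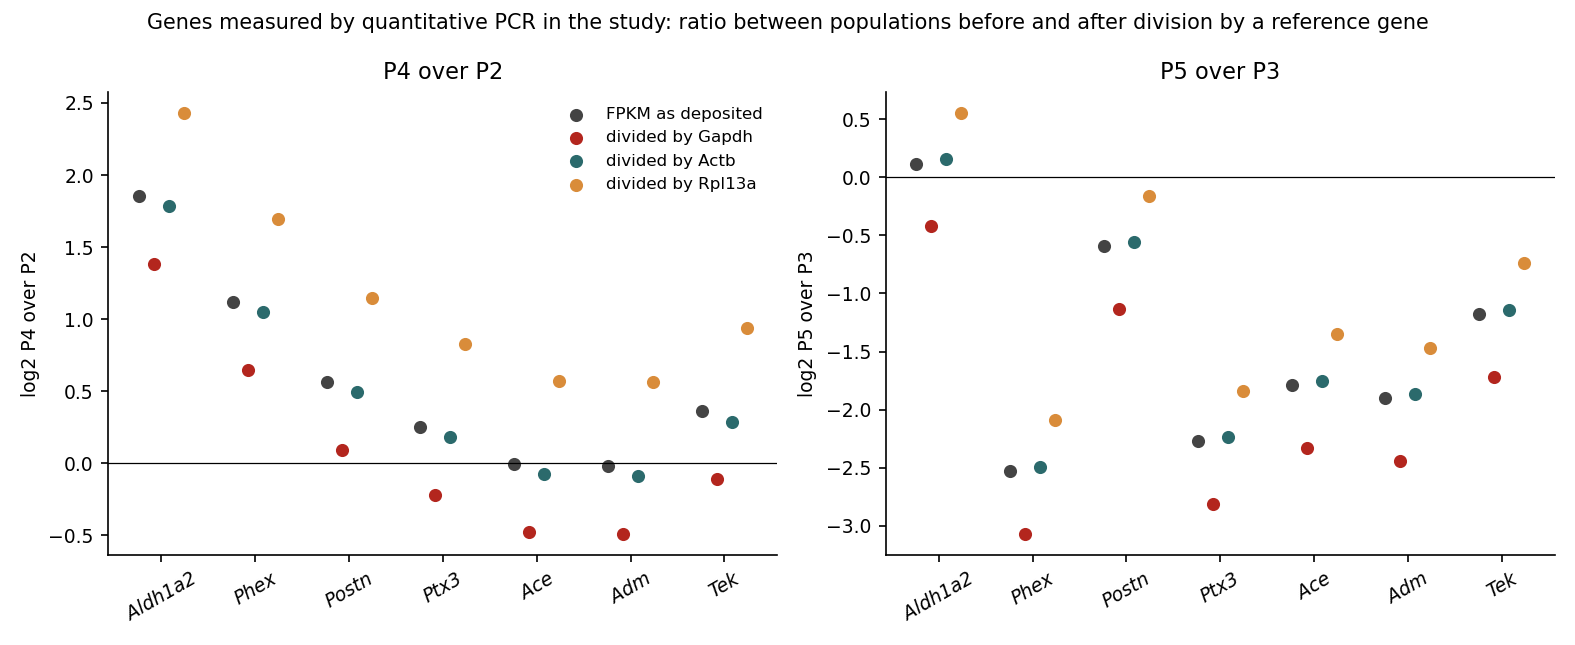
Points give the log2 ratio of FPKM, with nothing added, for P4 over P2 (left) and P5 over P3 (right) of 7 genes, as deposited and after division by *Gapdh*, *Actb* or *Rpl13a*. The *Gapdh* points lie lowest and the *Rpl13a* points highest for each gene, and *Ptx3* and *Tek* are above 0 as deposited and below 0 with *Gapdh* in the left panel.

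Outside all lists, the 5 genes whose log2 levels over the 6 libraries were most like *Gapdh* among 6075 genes with a mean of at least 10 FPKM were *Cux1*, *Gm12070*, *Dynlt3*, *Pcgf3* and *Crot*, with Pearson correlations of 0.997 to 0.999 over 6 libraries. The coefficient was 0.930 for *Aldoa* and 0.924 for *Tpi1*, which ranked only 364 and 422 among the 6075 genes. It was 0.78 for *Gpi1* and *Pgk1* and 0.73 for *Hk1*, but -0.19 for *Ldha* and -0.52 for *Pfkp*. The libraries share their cell gates, and P4 and P5 weigh most in these coefficients. *Cux1* was at 16.5 to 17.6 FPKM in P1 to P3, 26.6 and 28.7 in P4 and P5 and 22.2 in P6.

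Markers of other cell types differed between the same populations. Beside the marker counts that follow, 17.5% of all genes were higher in both pairs and 11.6% lower. All 18 pancreatic acinar markers were higher in both pairs, and their summed FPKM was 5.38, 281 and 30.8 in P1 to P3, 1530 and 179 in P4 and P5 and 2209 in P6. All 8 mesothelial markers were higher in both pairs, with sums of 72.7 to 147 FPKM in P1 to P3, 919 and 743 in P4 and P5 and 2898 in P6. Of these, *Krt8* and *Krt18* passed the mean limit through P6 (57.2 and 67.0 FPKM) and did not exceed 0.144 FPKM in P1 to P3. The acinar and mesothelial sums were higher in P4 than in P2 and in P5 than in P3, but the acinar sum of P2 exceeded that of P5. P4 and P5 both lay above P1 to P3 for 1 of the 18 acinar and all 8 mesothelial markers, beside 38.5% of all genes. The sums of the endothelial, mural and adipocyte lists were also higher in both pairs, but few genes carried them. *Esam* and *Kdr* made most of the endothelial sum in P4 and P5. *Fabp4* made most of the adipocyte sum, with 349 FPKM in P5, while *Plin1* was lower in both pairs. *Myh11* had 6.31 FPKM in P2 and 56.6 in P4, and 35.1 in P3 and 91.8 in P5. The mural markers *Des* and *Tagln* had ratios below 1 in both pairs.

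Of 8 endothelial markers 6, *Pecam1* and *Cdh5* among them, stayed below 1 FPKM in every library. At these low levels *Pecam1*, *Cdh5*, *Flt1*, *Emcn* and *Tie1* were lower in both pairs. The ratios for P4 over P2 and P5 over P3 were 0.36 and 0.30 for *Pecam1* and 0.69 and 0.61 for *Cdh5*. *Cldn5* was mixed, at 0.48 and 1.21. The remaining 2 markers, *Esam* and *Kdr*, were higher in both pairs, opposite to *Pecam1* and *Cdh5*. *Esam* had 0.274 to 1.17 FPKM in P1 to P3, 15.1 and 9.55 in P4 and P5 and 62.0 in P6, and *Kdr* had 0.139 to 0.931 FPKM in P1 to P3, 3.30 and 1.46 in P4 and P5 and 46.9 in P6. Of 4 mural markers with a mean of at least 1 FPKM 2 were higher, *Myh11* (8.85 and 2.61 times) and *Acta2* (3.58 and 2.37 times), and 1 was lower, *Tagln*. The summed FPKM of the mural list, of which *Des* was the largest part, was 64.4 to 249 in P1 to P3, 185 and 299.5 in P4 and P5 and 114 in P6.

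Of 6 adipocyte markers with a mean of at least 1 FPKM 1 was higher, *Fabp4*, a fatty acid binding protein (1.54 and 1.48 times), and 2 were lower, *Cfd* and *Plin1*. *Cfd* passed the mean limit only through P6 (114 FPKM). It was at 0.337 FPKM or less in P1 to P5, so that nothing is read from its call. The sums of the list were 153 to 248 FPKM in P1 to P3, 227 and 359 in P4 and P5 and 345 in P6. Of 3 erythroid markers 0 were higher or lower in both pairs, and the sums were 66.2, 66.7 and 211 FPKM in P1 to P3, 84.0 and 132 in P4 and P5 and 246 in P6. Of 4 lymphoid and myeloid markers 1 was lower, *Lyz2*, with sums of 20.4 to 31.9 FPKM in P1 to P3, 17.0 and 13 in P4 and P5 and 48.6 in P6. Immediate-early genes, which respond to cell dissociation, summed to 10525 to 11130 FPKM in P1 to P3, 9588 and 9619 in P4 and P5 and 10491 in P6. The part of these cell types and genes in the *Gapdh* level was not tested.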

How the data were processed

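RNA of 6 sorted omental stromal populations (P1 to P6) was sequenced by the authors as single-end reads of 76 bases, with 1 library for each population. The authors deposited FPKM values per gene symbol, and no further scaling between libraries is stated. TopHat2 2.0.7, Cufflinks 2.1.1 and the build mm10 are named in the submitters' processing notes. Each library had 23847 rows, and the 495 rows with a repeated symbol were summed into 23352 symbols. Ratios were taken on FPKM + 0.1 and called when both pairs were at least 25% higher or 20% lower. Genes with a mean of at least 1 FPKM formed the background. Because the values are FPKM and each group had 1 library, no test was run. Depth was estimated from single-transcript genes of at least 800 bases with a fragment length of 200 bases, and 56.7% to 62.8% of the low values examined lay within 0.05 of a whole read. Intervals cover counting error only and treat reads as independent molecules, and those of *Gapdh* do not cover the division of reads between *Gapdh* and *Gm12070*. A multi-copy row such as *Gm12070* depends on how multiply mapped reads were assigned, which is not given in the sources used here.

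The members and the gene lists were chosen with earlier results of these data known. The genes named were all members, up to 4 genes of each other list (the most abundant and those with the largest mean log2 ratio, among genes reaching 5 FPKM), the reference genes, sort markers and quantitative PCR targets, listed copies of members, and the 5 genes most like *Gapdh*. *Eno1*, *Pgam1*, *Hif1a*, *Slc16a3*, *Hk3*, *Pdk1*, *Pdk2*, *Pdk4*, *Krt8*, *Krt18* and *Aldoc* were named in addition after their values were seen. So were the endothelial markers *Pecam1*, *Cdh5*, *Flt1*, *Emcn* and *Tie1*, which did not reach 5 FPKM. Transcript copies were found with blastn 2.17.0 against GENCODE M21. Computation used Python 3.11.15, numpy 2.4.6, pandas 2.3.3 and matplotlib 3.10.9, and the calling and depth steps were tested on simulated data. Alternatives were 6 scalings, other pseudocounts, fold limits and gene sets, and 3 settings added after seeing the data.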

Additional observations from a re-analysis of the deposited data

Results flagged for a closer look

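Differences in opposite directions at the 2 ALDH levels, at least 25% higher in one pair and at least 20% lower in the other, were looked for among all listed genes with a mean of at least 5 FPKM. The 3 that met these limits were quantitative PCR targets, and none was a glycolysis gene. *Phex*, a membrane endopeptidase, had a log2 ratio of 1.09 for P4 over P2 and -2.36 for P5 over P3, a difference of 3.45. For *Postn*, which encodes the matrix protein periostin, the ratios were 0.57 and -0.59, a difference of 1.16. For *Tek* they were 0.36 and -1.15, a difference of 1.51. Each direction rests on a single pair of libraries, and the difference was not tested. After division by *Gapdh* the P4 over P2 ratio of *Tek* was below 1, so that its directions were no longer opposite.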

How the results depend on the processing

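*Gapdh* was higher in P4 than in P2 and in P5 than in P3 under all 6 scalings, with log2 ratios (0.47 and 0.54 as reported) of 0.44 for P4 over P2 with a common sum, 0.38 and 0.45 with the median of ratios, 0.36 and 0.45 with the upper quartile, 0.62 for P5 over P3 with quantile normalization, 1.05 and 0.98 after division by *Rpl13a*, and 0.40 and 0.58 after division by *Actb*. The medians over the members were 0.22 and 0.25 with the median of ratios, 0.20 and 0.25 with the upper quartile, 0.89 and 0.77 with *Rpl13a*, 0.24 for P4 over P2 with *Actb*, and 0.20 and 0.25 over all 21 glycolysis enzymes that reached 1 FPKM, of which 10 were higher in both pairs. Among these 10, *Aldoc* reached 1 FPKM only in P6 (1.22 FPKM) and was at 0.205 FPKM or less in P1 to P5. *Gapdh* less the median of the other reference genes became 0.51 and 0.53 with quantile normalization and 0.37 for P5 over P3 without ribosomal protein genes. The count of 5 higher members, *Gapdh* included, became 9 with *Rpl13a* and 4, without *Gpi1*, with the upper quartile and with quantile normalization. The share of all genes higher in both pairs moved as well, from 17.5% to 70.0% with *Rpl13a*, 13.5% with the upper quartile and 13.96% with quantile normalization. At a fold of 1.5 or of 2 the count of members was 0. The share of all genes at these folds is not given here, so nothing about the members is read from that count. P6 had 2 higher members with quantile normalization, 3 with *Rpl13a* and 3 at a fold of 1.1, and 1 lower member at a fold of 1.5 and 0 at a fold of 2. The shares of all genes in P6 under these settings are not given here, so nothing about the members is read from these counts. The 7 members above P1 to P3, *Gapdh* included, became 5 with the median of ratios and with the upper quartile, without *Pgk1* and *Aldoa*, 6 with quantile normalization and 9 with *Rpl13a*, while the share of all genes went from 38.5% to 26.5%, 25.7%, 24.7% and 78.5%. Of all genes called in either direction, 60.2% were higher as deposited, 49.8% with the median of ratios, 48.2% with the upper quartile and 94.2% with *Rpl13a*, which moved the median log2 P4 over P2 of all genes from 0.08 to 0.65. The upper quartile and quantile normalization moved it to -0.03. No paired analysis was possible because a single library stood for every population. No replicate could be left out, and the values describe 6 libraries rather than the spread between mice.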
